A study of Mus musculus with 11 samples.

Results

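RNA levels in p53-restored mouse embryonic fibroblasts (MEFs) were compared between 3 arrays of cells given p53 siRNA and 3 arrays of cells given control siRNA. A probe set, the group of array probes that reads 1 transcript, was included when its log2 value exceeded 6 in at least 2 arrays of either siRNA group. This held for 25803 of the 34760 probe sets in the table, and the 6 arrays were part of a series of 11. Both groups were MEFs of a C57BL/6 x 129/SvJ background, homozygous for p53 LSL, an allele silenced by a removable stop cassette. In both groups Cre adenovirus (24 h, multiplicity of infection 5) removed the cassette, siRNA was transfected next, and 24 h later doxorubicin was given at 150 nM for 12 h. The groups thus differed in the siRNA alone, and no array without doxorubicin or without restored p53 entered the comparison. The other arrays, used only where stated, came from the same cells treated with an antisense oligonucleotide (ASO) against the lncRNA Pint (3 arrays) or a control ASO (2 arrays).

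The transcription factor p53 is kept low by the ubiquitin ligase Mdm2 and accumulates when DNA is broken, as it is by doxorubicin, a topoisomerase II poison. It binds paired half-sites in DNA and activates genes of arrest, repair and death. Many cell cycle genes are silenced downstream of it, through the CDK inhibitor p21 and the DREAM complex, which binds CHR elements in promoters of mitotic genes.

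The response to p53 siRNA was broad and mostly shallow. limma called 4405 probe sets (17.1% of 25803) at a Benjamini-Hochberg adjusted p under 0.05, with 2072 higher and 2333 lower. With 1 probe set taken per gene, 16050 genes were measured, of which 1715 (10.7%) were higher and 1717 (10.7%) lower in p53 siRNA. The median change over all genes was 0.02 on the log2 scale, in which all changes are given here as p53 siRNA minus control siRNA, and the median standard error (SE) was 0.07. Of the genes that rose, 73.6% changed by less than 0.5, and of those that fell, 71.2%. Changes of at least 1, a doubling or halving of the signal, were reached by 50 genes that rose and 92 that fell, and changes of at least 1.5 by 1 and 22 genes. The 3 values of each group did not overlap in 6759 genes (42.1%), which is the background for any statement on overlap below, and this held for 3429 of the 3432 called genes. In bulk RNA of this kind, fewer cells making a transcript and less of it per cell cannot be told apart.

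**Figure D1:**
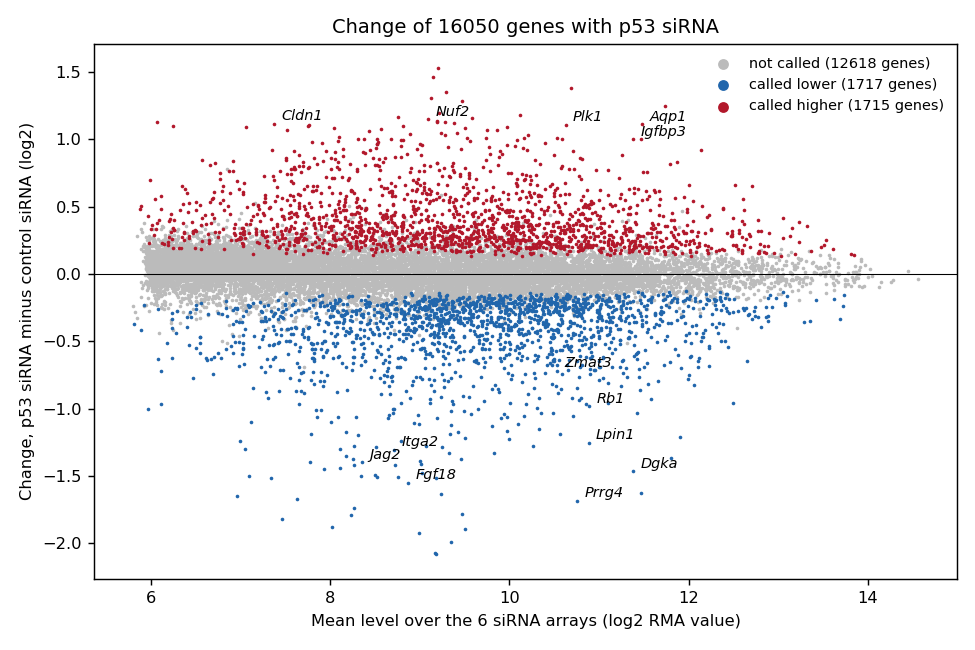
Change of each of 16050 genes (points, vertical axis, log2) against its mean level over the 6 siRNA arrays (horizontal axis, log2 RMA value). The 1717 genes called lower reach -2.08, farther from 0 than the 1715 called higher, which reach 1.53, and calls are sparse at the dim end.

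How often a gene was called depended on its level. Among 3410 genes with a mean log2 value under 7, 3.02% rose and 1.67% fell, against 14.2% and 17% of the 5229 genes between 9 and 11. The median SE was 0.09 in the first class and 0.06 in the second. Near the floor of the filter, 538 probe sets lay within 0.1 above it, of which 11 were called, and 533 lay within 0.1 below it. Of 812 genes with several probe sets, 152 had both a called and an uncalled one. In 90 genes 2 or more were called, in each case in 1 direction. By chromosome, between 17.9% (chromosome 7) and 24.7% (chromosomes 16 and 18) of genes were called. On the X chromosome 15.4% of 487 genes rose and 8.83% fell, the widest gap between the directions.

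The genes ranked 11 to 30 among those that fell came from many kinds of protein. Prrg4, which codes for a vitamin K-dependent membrane protein, read 11.63, 11.53 and 11.64 in control siRNA and 9.82, 9.94 and 9.99 in p53 siRNA. It fell by 1.68 (SE 0.07, adjusted p = 1.01e-06), to 31.1% of the control level. The growth factor gene Fgf18 read 9.69, 9.65 and 9.60 against 7.96, 8.17 and 8.15 and fell by 1.55 (SE 0.06, adjusted p = 8.81e-07). Ranks were given only to called genes whose groups did not overlap, so the lack of overlap in ranked genes was fixed by that rule. Prkaa2, for a catalytic subunit of the energy sensor AMPK, read 8.86, 8.82 and 8.82 against 7.44, 7.39 and 7.34 and fell by 1.44 (SE 0.08, adjusted p = 4.58e-06). Atg9b, for an autophagy membrane protein, fell too (-1.42, SE 0.11), as did the diacylglycerol kinase gene Dgka (-1.47, SE 0.05) and the mitochondrial creatine kinase gene Ckmt1 (-1.51, SE 0.07). Grhl3 and Ivl, for a transcription factor of epidermal differentiation and for involucrin of the cornified envelope, changed by -1.49 (SE 0.06) and -1.48 (SE 0.11). The chloride channel family gene Ano3 fell by 1.63 (SE 0.14) and the carboxypeptidase gene Cpz changed by -1.52 (SE 0.06). The borate transporter family gene Slc4a11 read 9.44, 9.48 and 9.60 against 7.96, 8.13 and 7.92.

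Among the genes ranked 11 to 30 on the other side, mitotic genes stood beside genes of other kinds. Plk1, the kinase that drives mitotic entry, read 10.10, 9.96 and 10.16 in control siRNA and 11.13, 11.22 and 11.19 in p53 siRNA, a rise of 1.11 (SE 0.07, adjusted p = 8.52e-06). Aqp1, the water channel gene, read 10.88, 10.92 and 10.98 against 12.02, 12.02 and 12.07, a rise of 1.11 (SE 0.05, adjusted p = 1.64e-06), or 2.16-fold. These ranks too held only genes without overlap between the groups. Cldn1, for the tight junction protein claudin-1, rose by 1.11 (SE 0.06), the chemokine gene Ccl3 by 1.13 (SE 0.15), Angpt1, for a ligand of the endothelial receptor Tie2, by 1.10 (SE 0.11) and Egfl6, for a secreted matrix protein, by 1.10 (SE 0.13). Of the interferon-inducible genes of the same ranks, Ifi205 rose by 1.09 (SE 0.15). Ifi208 read 5.25, 5.93 and 5.34 in control siRNA against 6.19, 6.74 and 6.99, and Gbp5 read 5.59, 5.61 and 5.90 against 6.72, 6.84 and 6.85. Both lay under the floor of 6 in every control array and passed the filter only through the p53 siRNA group, so their ranks are a description.

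**Figure D2:**
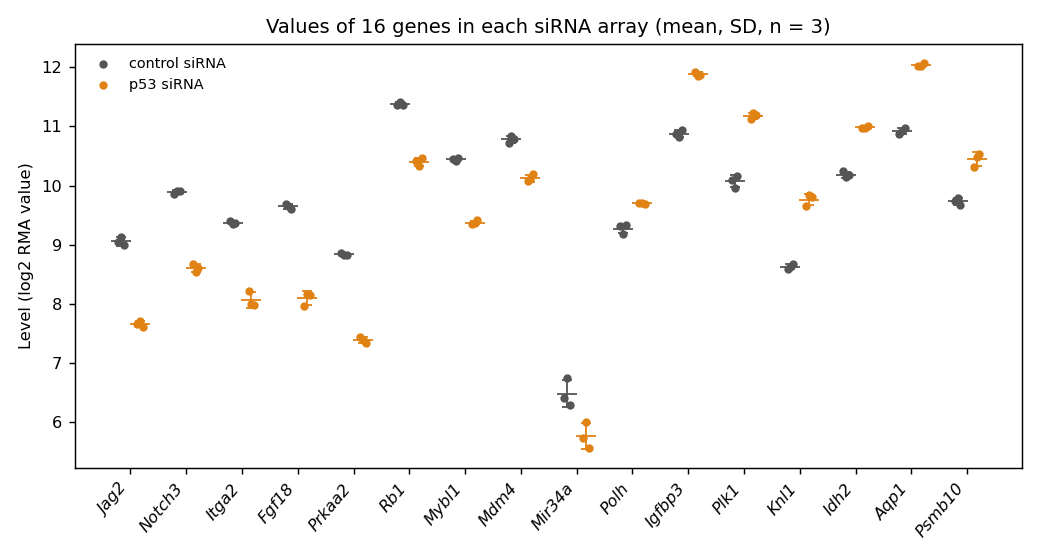
Log2 RMA value (vertical axis) of 16 genes in each of the 3 control siRNA and 3 p53 siRNA arrays (points), with group mean (horizontal mark) and SD (bars). No gene shown overlaps between the groups, and Mir34a, the dimmest, has its p53 siRNA values under the floor of 6.

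Lists of p53 target genes were divided by role. Of 14 genes of feedback and arrest, 11 fell and none rose, with a list median of -0.48 beside 0.02 over all genes. Zmat3, for an RNA-binding tumour suppressor, read 10.89, 10.89 and 10.90 in control siRNA and 10.15, 10.16 and 10.21 in p53 siRNA, and fell by 0.72 (SE 0.04, adjusted p = 4.49e-06). Ptprv and Btg2, both tied to arrest in G1, changed by -0.78 (SE 0.07) and -0.73 (SE 0.05). Ccng1, for cyclin G1, was the brightest of these, at 13.88, 13.81 and 13.87 against 13.48, 13.53 and 13.55, and it fell by 0.33 (SE 0.05, adjusted p = 0.00109). Of 15 cell death targets 12 fell and 1 rose (median -0.60). Eda2r, for a death receptor of the TNF family, fell by 0.92 (SE 0.05), and Ei24, for a membrane protein of the endoplasmic reticulum, fell by 0.65 (SE 0.05). The member that rose was the autophagy regulator Dram1, and Bbc3 (-0.15) and Steap3 (-0.14) were not called. In the feedback and arrest list Gadd45a (-0.04), Sfn (0.17) and Cop1 (0.01) were not called.

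The repair targets split. Polk, for a translesion DNA polymerase, read 11.39, 11.38 and 11.39 in control siRNA and 10.58, 10.56 and 10.65 in p53 siRNA, and fell by 0.79 (SE 0.05, adjusted p = 5.60e-06). Ercc5, for the nuclease that cuts 3' of a bulky lesion, fell by 0.88 (SE 0.05), and Mgmt, which removes alkyl groups from guanine, fell by 0.65 (SE 0.04). Polh, for the translesion polymerase eta, moved the other way, from 9.31, 9.18 and 9.33 to 9.71, 9.71 and 9.69, a rise of 0.43 (SE 0.07, adjusted p = 0.00160). These were the 4 genes called of 8, and Ddb2 (0.06), Xpc (-0.10), Rrm2b (-0.06) and Fancc (0.11) were not called.

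Of 17 metabolic and stress targets 9 fell and 1, Sod2, rose. Lpin1, for a phosphatidate phosphatase of fat synthesis, read 11.51, 11.53 and 11.50 in control siRNA against 10.31, 10.25 and 10.21 and fell by 1.25 (SE 0.05, adjusted p = 7.73e-07). Aldh4a1, for the last enzyme of proline breakdown, fell by 1.06 (SE 0.06). The rise of Sod2 (0.28, SE 0.07, adjusted p = 0.0170) lost its call without control array 2 or p53 siRNA array 2 or 3. Igfbp3, for a secreted binder of insulin-like growth factors that is listed among p53 targets, read 10.87, 10.83 and 10.94 against 11.92, 11.86 and 11.87, a 2-fold rise (SE of the log2 change 0.06, adjusted p = 8.19e-06). On the same list of 10 secreted and surface targets, 4 fell (2 without p53 siRNA array 2) and 2, Igfbp3 and Kitl, rose (1 without any 1 array other than p53 siRNA array 2), with the extracellular sulfatase gene Sulf2 (-0.65, SE 0.05) and Notch1 (-0.65, SE 0.06) lowest.

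Of 24 regulators and partners of p53 itself 4 rose (16.7%) and 3 fell (12.5%), near the 10.7% of all genes in each direction (median -0.01). Mdm4, the p53 inhibitor related to Mdm2, read 10.72, 10.84 and 10.79 in control siRNA and 10.07, 10.11 and 10.19 in p53 siRNA, and fell by 0.66 (SE 0.05, adjusted p = 3.74e-05). Ppp1r13l, for the p53-binding inhibitor iASPP, fell by 0.87 (SE 0.04). The checkpoint kinase gene Chek1 rose by 0.55 (SE 0.11, adjusted p = 0.00884).

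**Figure D3:**
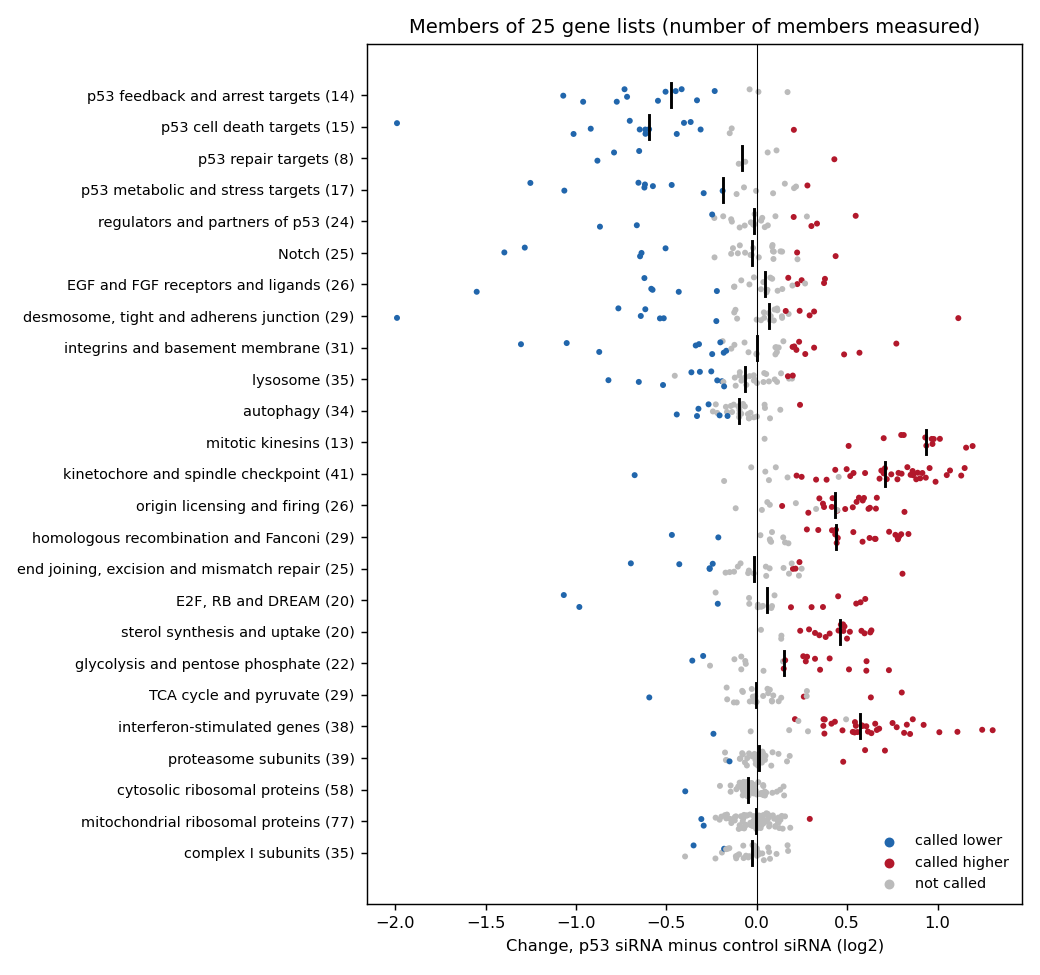
Change with p53 siRNA (horizontal axis, log2) of every measured member (points) of 25 gene lists, with the list median (black bar) and the number of members in brackets. The p53 death targets (median -0.60) and the mitotic kinesins (median 0.94) lie far to either side, while the ribosomal protein and complex I lists cluster at 0.

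Genes of cell division rose nearly in step, and only a few members went against the rest. Of 13 mitotic kinesins, the motors that move chromosomes and spindle poles, 12 rose (median 0.94), and of 27 genes of the spindle, centrosome and cytokinesis 24 rose (median 0.81). In the kinetochore, where chromosomes meet the spindle, 33 of 41 genes rose (median 0.71). Knl1, a scaffold of its outer layer, read 8.59, 8.62 and 8.68 in control siRNA and 9.65, 9.84 and 9.80 in p53 siRNA, a rise of 1.13 (SE 0.07, adjusted p = 6.46e-06). Nuf2, of the Ndc80 complex that holds microtubules, rose by 1.15 (SE 0.11). The inner kinetochore gene Cenpt fell instead, from 10.76, 10.71 and 10.78 to 10.04, 10.09 and 10.10, by 0.68 (SE 0.04, adjusted p = 8.64e-06). Likewise 18 of 23 genes of mitotic entry and exit rose, among them Aurka (1.07, SE 0.06), and 1 fell. This was Gtse1, for a microtubule-associated protein that binds p53, at 11.49, 11.53 and 11.50 against 10.67, 10.73 and 10.69, and fell by 0.81 (SE 0.04, adjusted p = 2.12e-06). The groups overlapped in neither gene.

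Replication genes rose as well. Of 26 genes that license and fire origins 19 rose (median 0.43), led by Ticrr (0.82, SE 0.06), and of 31 genes of the replication fork 22 rose (median 0.45), and none of either list fell. Of 21 genes of condensin, cohesin and topoisomerase, which shape and hold chromosomes, 14 rose (median 0.29), led by the condensin gene Ncapd2 (1.07, SE 0.05), and Nipbl fell (-0.21), a call lost without any 1 of the 6 arrays. In nucleotide synthesis 11 of 22 rose, with the thymidine kinase gene Tk1 (0.75, SE 0.07) and the ribonucleotide reductase gene Rrm1 (0.60, SE 0.07) highest. The count of 11 was 7 without control array 1 or p53 siRNA array 1 and 6 without control array 2 or p53 siRNA array 2. Cad, Mthfd1 and Impdh1 were the 3 members that fell.

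DNA repair pathways did not move alike. Of 29 genes of homologous recombination and the Fanconi pathway, 19 rose (median 0.44), among them Fancb (0.84, SE 0.12), Fancd2 (0.73, SE 0.06) and Brca1 (0.53, SE 0.07). Of the list 2 genes fell, Rad51d (-0.47, SE 0.05, adjusted p = 0.000167) and Rad50 (-0.21), of the complex that binds broken DNA ends. The call of Rad50 was lost without any 1 of the 6 arrays. End joining, excision and mismatch repair stood at a median of -0.02, with 4 of 25 higher (16%) and 5 lower (20%), beside 10.7% of all genes in each direction. The glycosylase gene Neil3 rose by 0.81 (SE 0.11) and the mismatch repair gene Msh6 fell by 0.70 (SE 0.09). The 4 higher became 2 without control array 2 and 1 without control array 3 or p53 siRNA array 2 or 3. The 5 lower became 2 without control array 1 or 3 and 3 without p53 siRNA array 1 or 3.

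The regulators of the cell cycle programme were themselves divided. Of 20 genes of the E2F, RB and DREAM families 7 rose (35%) and 3 fell (15%), beside 10.7% of all genes in each direction (median 0.06). Rb1, for the retinoblastoma protein that holds E2F factors inactive, read 11.37, 11.41 and 11.37 in control siRNA and 10.42, 10.33 and 10.46 in p53 siRNA, and fell by 0.98 (SE 0.05, adjusted p = 4.44e-06) to 50.6% of the control level. Mybl1, for a MYB transcription factor, read 10.45, 10.42 and 10.46 against 9.35, 9.36 and 9.41 and fell by 1.07 (SE 0.05, adjusted p = 2.24e-06). Both genes were well apart between the groups. Lin9 (0.60, SE 0.11) and Lin54 (0.55, SE 0.07), subunits of the MuvB core shared by DREAM and its activating counterpart, rose, as did the repressor gene E2f7 (0.57, SE 0.07). The third that fell, Rbl2 (-0.22), lost its call without any 1 of the 6 arrays.

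Short sequences near gene starts were counted in the RefSeq promoter windows (mouse build GRCm38.p6, 250 bases before to 50 after a start), which could be matched to 12600 of the 16050 genes. The CHR element was searched as TTTGAA or TTCGAA, the E2F site as TTTCCCGC, TTTGGCGC or TTTCGCGC, the interferon response element (ISRE) as GAAANNGAA, and CCAAT, the sterol response element TCACCCCAC and the p53 half-site consensus beside them, on both strands. None of these patterns holds another whole, and genes with several windows counted when any matched. The share with a CHR element was 37.1% of the 350 genes that rose by at least 0.5, 16.6% of the 977 that rose by less, 16.2% of genes not called and 13.3% of those that fell. It was 61.8% in the mitotic lists, and 19.2% of all 32851 windows in the table held one. CHR and CCAAT were both found in 21.7% of the genes that rose by at least 0.5 and 6.76% of all genes. An E2F match was found in 6.71% of genes that rose, 3.05% of those that fell, 3.17% of genes not called and 41.3% of the replication lists. Counted per window it was in 1.84% of the table. The ISRE was found in 16.6% of the genes that rose by at least 0.5, in 63.0% of the interferon-stimulated genes, in 8.10% of genes not called and, counted per window, in 8.56% of the table. The p53 half-site was found in 16.9% of the 71 genes that fell by at least 1, 10.9% of all genes that fell, 8.39% of genes not called and, counted per window, 8.36% of the table. Among lists it was in 22.2% of 45 p53 targets, but also in 22.2% of 27 interferon-stimulated genes and 25% of 16 sterol genes, lists that mostly rose. The mitotic lists had it in 7.87% and the replication lists in 6.52%. CCAAT was in 37.4% of windows and in all 16 sterol genes, and the sterol response element in 0.551% of windows. A match is a description of letters and does not show that a factor binds there.

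**Figure D4:**
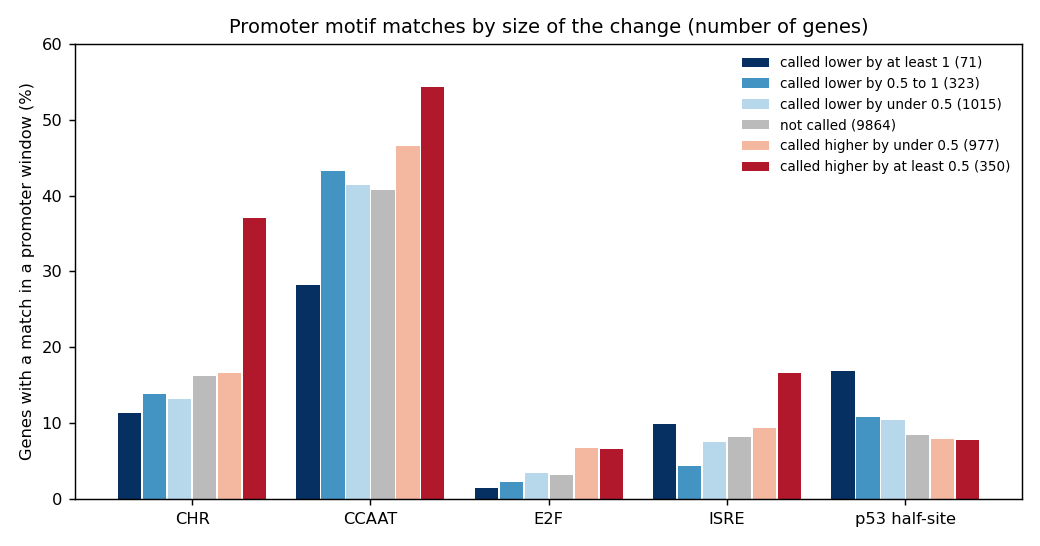
Share of genes with a motif match in a promoter window (vertical axis, percent) for 5 motifs, by call and size of the change on the log2 scale (colours, number of genes in brackets). CHR matches stand at 37.1% among genes that rose by at least 0.5 against 16.2% of genes not called, and p53 half-sites at 16.9% among genes that fell by at least 1 against 8.39%.

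The stretches below show, for the mitotic genes with the largest rise and a match before the start, where the CHR element lies, in capitals and 5′ to 3′ on the strand of the gene. Kif2c (chr4:117178850-117178895, minus strand, rise 1.19) codes for a microtubule-depolymerizing kinesin, Ckap2l (chr2:129297217-129297262, minus strand, rise 1.17) for a spindle protein, and Kif11 (chr19:37376343-37376381, plus strand, rise 1.16) for the motor that separates spindle poles.
Kif2c: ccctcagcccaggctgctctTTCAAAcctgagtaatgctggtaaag
Ckap2l: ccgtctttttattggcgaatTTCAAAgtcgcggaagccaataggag
Kif11: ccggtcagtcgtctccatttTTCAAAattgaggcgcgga

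The next stretches show E2F matches of replication genes, for the methylated-DNA adaptor Uhrf1 (chr17:56304108-56304155, plus strand), whose level rose by 0.67 (SE 0.06), the helicase subunit Mcm5 (chr8:75109336-75109387, plus strand), which rose by 0.66 (SE 0.05), and the polymerase alpha subunit Pola1 (chrX:93632266-93632313, minus strand), which rose by 0.64 (SE 0.12). In Mcm5 overlapping matches on the opposite strands form the run in capitals.
Uhrf1: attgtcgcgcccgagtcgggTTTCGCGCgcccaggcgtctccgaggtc
Mcm5: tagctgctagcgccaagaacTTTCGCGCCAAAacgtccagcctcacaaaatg
Pola1: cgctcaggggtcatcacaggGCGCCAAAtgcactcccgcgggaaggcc

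Matches to the ISRE are shown for Cxcl10 (chr5:92349074-92349122, minus strand), a chemokine gene, and Gbp7 (chr3:142530264-142530312, plus strand), for a guanylate-binding protein. Gbp7 read 9.82, 9.62 and 9.77 in control siRNA and 10.67, 10.57 and 10.73 in p53 siRNA, a rise of 0.92 (SE 0.09, adjusted p = 7.83e-05).
Cxcl10: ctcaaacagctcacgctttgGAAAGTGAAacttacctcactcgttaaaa
Gbp7: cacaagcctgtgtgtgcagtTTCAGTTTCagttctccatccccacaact

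Matches to the p53 half-site are shown for 3 p53 targets that fell, Mdm2 (chr10:117710915-117710964, minus strand, change -0.96), Polk (chr13:96519389-96519437, minus strand, change -0.79) and Ei24 (chr9:36797335-36797364, minus strand, change -0.65). The capitals mark 1 half-site each.
Mdm2: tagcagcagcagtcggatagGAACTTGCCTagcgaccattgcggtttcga
Polk: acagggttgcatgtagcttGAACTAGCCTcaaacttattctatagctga
Ei24: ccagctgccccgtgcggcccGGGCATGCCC

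Signalling lists had members that fell and members that rose, with shares given here beside the 10.7% of all genes in each direction. In Notch signalling, by which neighbouring cells set each other's fate, 5 of 25 genes fell (20%) and 2 rose (8%), with a median of -0.03. The ligand gene Jag2 read 9.04, 9.13 and 8.99 in control siRNA and 7.66, 7.70 and 7.61 in p53 siRNA, and fell by 1.40 (SE 0.05, adjusted p = 7.73e-07) to 38% of the control level. The receptor gene Notch3 read 9.85, 9.91 and 9.90 against 8.67, 8.53 and 8.61 and fell by 1.28 (SE 0.05, adjusted p = 9.96e-07). Also lower were the receptor gene Notch1 and the Hes and Hey family genes Hes6 (-0.64, SE 0.06) and Hey2 (-0.51, SE 0.09). Lfng, which puts a sugar on Notch receptors, rose by 0.44 (SE 0.05), and 18 of the 25 genes were not called. Of 26 genes of EGF and FGF signalling 6 fell (23.1%), and 5 rose (19.2%) by up to 0.38. Among those that fell were the ligands Fgf2 (-0.62, SE 0.05) and Hbegf (-0.58, SE 0.09) and the receptor Egfr (-0.43, SE 0.05). Of 18 MAPK phosphatase and Sprouty genes, which damp this pathway, 7 fell (38.9%), with Dusp6 at -0.47 (SE 0.05), and 2 rose (11.1%). Of 46 Wnt genes 8 rose (17.4%), led by the receptor Fzd4 (0.72, SE 0.06). Only 4 fell (8.7%, below the share of all genes), led by the ligand Wnt9a (-0.78, SE 0.05).

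Adhesion genes moved in both directions, with shares given here beside the 10.7% of all genes in each direction. Of 31 integrin and basement membrane genes 9 fell (29%) and 9 rose (29%, median 0.00), and the 9 higher became 5 without p53 siRNA array 3. Itga2, a collagen-binding integrin subunit, read 9.40, 9.35 and 9.36 in control siRNA and 8.22, 7.99 and 7.98 in p53 siRNA, and fell by 1.30 (SE 0.07, adjusted p = 5.10e-06). Itga6, a laminin-binding subunit, fell by 1.05 (SE 0.08). Itga11, another collagen-binding subunit, moved the other way, from 8.75, 8.86 and 8.86 to 9.58, 9.57 and 9.63 (0.77, SE 0.06, adjusted p = 2.03e-05). Of 29 junction genes 7 fell (24.1%), among them the desmosome genes Dsp (-0.64, SE 0.08) and Jup (-0.62, SE 0.05) and the tight junction gene F11r (-0.77, SE 0.09). Another 5 rose (17.2%), a count that was 3 without any 1 of the 6 arrays. Cldn1, described above, was highest of these. Among 29 matrix proteases and inhibitors 7 rose (24.1%) and 7 fell (24.1%). The aggrecanase gene Adamts5 rose by 1.01 (SE 0.08) and the stromelysin gene Mmp10 fell by 1.03 (SE 0.05).

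Metabolic lists differed by pathway, with shares given here beside the 10.7% of all genes in each direction. Glycolysis and the pentose phosphate pathway had 12 of 22 genes higher (54.5%, median 0.15) and 2 lower (9.09%), or 1 lower without control array 3. Highest were the lactate exporter Slc16a3 (0.73, SE 0.06), Pfkfb3 (0.61, SE 0.08) and Aldoc (0.61, SE 0.05). In the TCA cycle 3 of 29 were higher (10.3%) and 1 lower (3.45%), shares near or below that of all genes (median 0.00). Its NADP-dependent isocitrate dehydrogenase gene Idh2 read 10.24, 10.14 and 10.18 in control siRNA and 10.98, 10.98 and 11.01 in p53 siRNA, a rise of 0.80 (SE 0.04, adjusted p = 4.58e-06). Pdk1, the kinase that inhibits pyruvate dehydrogenase, rose by 0.63 (SE 0.09), and the pyruvate carboxylase gene Pcx fell by 0.59 (SE 0.05). Of 32 genes of glutathione and antioxidant defence 7 fell (21.9%) and 4 rose (12.5%). Lowest were the secreted peroxidase gene Gpx3 (-1.22, SE 0.07) and the glutathione synthetase gene Gss (-0.69, SE 0.05).

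Degradation lists had medians slightly below 0, with shares given here beside the 10.7% of all genes in each direction. Of 35 lysosomal genes 9 fell (25.7%, median -0.06). The mannosidase gene Man2b1 read 12.45, 12.46 and 12.49 in control siRNA against 11.64, 11.63 and 11.66 in p53 siRNA, and fell by 0.82 (SE 0.05, adjusted p = 1.11e-05). The 2 members that rose (5.71%) were Gm2a and Npc1. That count was 0 without control array 1 or p53 siRNA array 3 and 1 without control array 2 or 3 or p53 siRNA array 1. Of 34 autophagy genes on the list 6 fell (17.6%, median -0.10) and Map1lc3a rose (2.94%). Atg7 (-0.44, SE 0.05), for the enzyme that starts the lipidation of LC3, fell most among these. Atg9b, described above with a larger fall, was not on this list.

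Of 309 solute carrier genes 35 rose (11.3%) and 37 fell (12%), near the 10.7% of all genes in each direction (median 0.05). The urate transporter gene Slc2a9 read 9.25, 9.20 and 9.21 in control siRNA and 8.17, 8.16 and 8.23 in p53 siRNA, and fell by 1.03 (SE 0.05, adjusted p = 1.39e-06), and the monocarboxylate carrier gene Slc5a8 fell by 1.07 (SE 0.06). The amino acid carrier gene Slc6a17 rose by 0.95 (SE 0.05). Of 183 ion channel genes 12 fell (6.56%), among them the calcium-activated chloride channel gene Ano1 (-1.24, SE 0.06), and 14 rose (7.65%) by up to 0.60, a number that was 8 without control array 1 and 9 without control array 3.

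In several large families of constant cell machinery few genes were called, beside 10.7% of all genes in each direction. Of 58 cytosolic ribosomal protein genes 1 was called, the p53-inducible paralogue gene Rps27l, at 13.07, 12.93 and 13.02 in control siRNA and 12.46, 12.66 and 12.71 in p53 siRNA (-0.40, SE 0.08, adjusted p = 0.00599). Of 77 mitochondrial ribosomal protein genes 1 rose and 2 fell, of 35 complex I genes 2 fell, and of 17 ATP synthase genes none was called. Without control array 2 the numbers that fell were 4, 4 and 1, and other single arrays left 1 of the complex I genes (control array 1 or 3 and each p53 siRNA array) and no mitochondrial ribosomal rise (control siRNA arrays and p53 siRNA array 3). Of 39 proteasome genes 3 rose, and these were the 3 interferon-inducible catalytic subunits of the immunoproteasome, Psmb10 (0.71, SE 0.09), Psmb8 (0.60, SE 0.06) and Psmb9 (0.48, SE 0.08). Psmb10 read 9.74, 9.79 and 9.67 against 10.31, 10.49 and 10.54. The 1 subunit that fell, Psmd8 (-0.15), lost its call without any 1 array other than control array 2. In complex IV, with a list median of -0.01, 3 of 16 genes fell (18.8%), beside 10.7% of all genes. These were Cox6b2 (-0.89, SE 0.05), from 9.15, 9.06 and 9.12 to 8.28, 8.16 and 8.20, Cox7a2l (-0.26) and Cox4i1 (-0.20). The count was 1 without control array 3 or p53 siRNA array 2. No small nucleolar RNA gene of 51 was called. Zinc finger genes named Zfp had 29 of 319 lower (9.09%), near the 10.7% of all genes, and 15 higher (4.7%). Zfp750 (-1.19, SE 0.06), a regulator of epidermal differentiation, and Zfp385a (-1.03, SE 0.06) fell most. Those 29 were 17 without control array 1 and 18 without control array 3, and the 15 were 6 without control array 1 and 9 without control array 2 or 3 or p53 siRNA array 1 or 2.

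In the interferon system, 32 of 38 interferon-stimulated genes rose (median 0.57) and 1, Ifi27, fell, a call lost without control array 1 or 3 or any 1 of the p53 siRNA arrays. Of 20 genes of interferons, their sensors and receptors 6 rose (30%) and 3 fell (15%), beside 10.7% of all genes in each direction (median 0.09). The 6 were 3 without control array 1 or 3 or p53 siRNA array 1, and the 3 were 1 without control array 1 or 3. The sensors of bacterial lipoproteins and of double-stranded RNA, Tlr2 and Tlr3, rose. Tlr2 read 8.99, 9.02 and 8.99 in control siRNA and 9.97, 9.90 and 9.93 in p53 siRNA, a rise of 0.93 (SE 0.07, adjusted p = 3.14e-05), and Tlr3 read 8.61, 8.38 and 8.62 against 8.93, 9.08 and 9.29 (0.56, SE 0.10, adjusted p = 0.00487). Of 35 chemokine and interleukin genes 14 rose (40%, median 0.21), led by Ccl3, and 5 fell (14.3%), among them Tslp, Lif and Il15.

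Among non-coding genes, 15 of 482 long non-coding RNA genes fell and 7 rose, shares below the 10.7% of all genes in each direction. Pvt1, a host of microRNAs next to Myc, read 10.34, 10.40 and 10.30 in control siRNA and 9.88, 9.94 and 10.00 in p53 siRNA, and fell by 0.41 (SE 0.06, adjusted p = 0.00135). Of 148 microRNA genes 6 fell (4.05%) and 5 rose (3.38%), shares likewise below that of all genes. These probe sets read the gene's transcript and not the mature microRNA. Mir221 read 8.54, 8.68 and 8.48 in control siRNA and 8.20, 8.13 and 7.95 in p53 siRNA, and fell by 0.47 (SE 0.10, adjusted p = 0.00756), a call kept without any 1 of the 6 arrays. Mir34a, a direct p53 target that represses cell cycle genes, read 6.41, 6.74 and 6.29 against 5.73, 5.99 and 5.56, and Mir350 read 6.33, 6.57 and 6.30 against 5.88, 5.70 and 5.72. Both lay under the floor of 6 in all p53 siRNA arrays and passed the filter only through the control group, as Mir301 did through the p53 siRNA group, so that their calls, though counted here, are given no weight. The 6 were 3 without control array 2. The 5 that rose, Mir301, Mir199a-1, Mir219a-2, Mir134 and Mir323, were 0 without control array 1 or p53 siRNA array 1, 2 without control array 2 or p53 siRNA array 3 and 1 without control array 3. The RefSeq mature sequences of Mir34a, Mir350 and Mir221, whose values are given above, follow, 1 arm each, with the seed (bases 2 to 8), which pairs with targets, in capitals. The 3 seeds differ, and the arms lie at chr4:150068473-150068494 (plus strand), chr1:176772342-176772363 (minus strand) and chrX:19146307-19146329 (minus strand).
mmu-miR-34a-5p: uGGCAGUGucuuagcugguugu
mmu-miR-350-3p: uUCACAAAgcccauacacuuuc
mmu-miR-221-3p: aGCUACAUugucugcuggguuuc

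The labelled cell type was checked against markers. Of 16 fibroblast markers measured, all passed the floor, 8 rose, among them Pdgfra (0.48) and Pdgfrb (0.50), and none fell (median 0.23). Epcam and Esrp1 of epithelium, Ptprc and Adgre1 of blood cells and macrophages, Emcn of endothelium, Myf5 of muscle and Adipoq of fat did not pass it. Of 5 macrophage and blood markers that passed, Cd68, for a lysosomal glycoprotein, fell from 10.48, 10.40 and 10.49 to 9.35, 9.46 and 9.43 (-1.04, SE 0.05, adjusted p = 1.41e-06) and Cd14 fell by 0.51 (SE 0.10). None of 6 endothelial and 7 neural markers was called, and of 7 epithelial markers Krt18 was (-0.20), a call lost without any 1 of the 6 arrays. Of 8 smooth muscle markers Cnn1 (0.30) and Smtn (0.20) rose and Des, for desmin, fell (-0.87, SE 0.06). Of 5 adipocyte markers Lpl, for lipoprotein lipase, rose from 8.22, 8.11 and 8.22 to 8.90, 9.08 and 9.15 (0.86, SE 0.07), and Pparg rose by 0.21, a call lost without any 1 array other than p53 siRNA array 1. Whether the mix of cells had a part in any change was not tested.

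The change with p53 siRNA was set against that with Pint ASO, each against its own control, in a test of the difference between them. It was called for 3880 of the 16050 genes (24.2%). Of 13 mitotic kinesins 12 had a called difference, the same 12 that rose with p53 siRNA, and the list median with Pint ASO was -0.03. Of 20 sterol genes 18 differed, with medians of 0.46 and -0.26, and of 38 interferon-stimulated genes 31 differed, with medians of 0.57 and -0.17. Of 35 lysosomal genes 10 differed, with medians of -0.06 and -0.26, and of 58 cytosolic ribosomal genes 1 did. Jag2 changed by -0.20 with Pint ASO and the difference was -1.19 (SE 0.08, adjusted p = 1.54e-05). Itga2 rose by 0.34 with Pint ASO, a difference of -1.64 (SE 0.11, adjusted p = 1.93e-05). For Gpx3, which fell by 1.04 with Pint ASO, the difference of -0.19 (SE 0.10) did not pass the test (adjusted p = 0.267), and for Pcx it was 0.03 (adjusted p = 0.860). The reagents also differed between these comparisons, so that the target and the chemistry of the knockdown cannot be told apart.

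**Figure D5:**
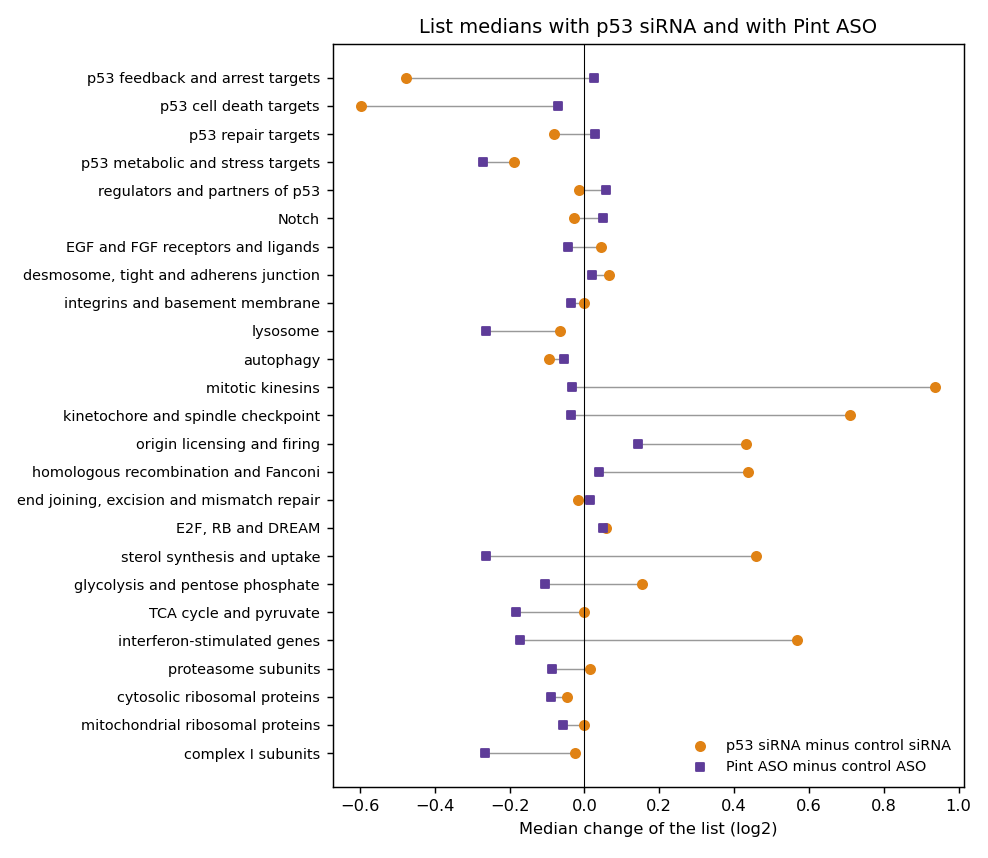
Median log2 change (horizontal axis) of 25 gene lists with p53 siRNA (circles) and with Pint ASO (squares), each against its own control. Mitotic kinesins stand at 0.94 and -0.03 and sterol genes at 0.46 and -0.26, while the E2F, RB and DREAM list stands at 0.06 and 0.05.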

How the data were processed

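RNA was hybridised to mouse gene arrays as biotin-labelled sense cDNA, and the authors deposited 1 table of log2 values for all 11 arrays, background-corrected and normalised together by RMA. Version numbers for RMA were not given in the sources used here. Array medians lay between 7.31 and 7.38, and correlations between 0.9931 and 0.9948 within an siRNA group and 0.9831 and 0.9885 between the groups. The number of arrays limits the precision, and the labels do not say that replicates were separate cultures, so the spread that p-values rest on may be technical.

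Probe sets above 6 in at least 2 arrays of any group were fitted in limma 3.58.1 (R 4.3.3) with all 4 groups and eBayes, and p-values were adjusted (Benjamini-Hochberg) over 26038 probe sets, of which 25803 passed in an siRNA group. A probe set was called at an adjusted p under 0.05. Genes were named from probe sets with 1 symbol (21640 of 34760), taking the brightest probe set of a gene. The 8389 members without 1 symbol gave 247 higher and 516 lower calls and are not named. The fit was tested on simulated data. Named genes were the 30 called genes with the largest change in each direction whose groups did not overlap. Those ranked 1 to 10 were named only where a result turned on them. Also named were up to 6 called members of a list in each direction, members called against their list, and defining members. Members, lists and tests were chosen with earlier results of these data known. The level of the targeted gene is not reported here, so the knockdown was not checked on these arrays. siRNA arrays of the same title number did not deviate together (correlations -0.284, -0.181 and -0.0371). Only title numbers were checked, so this cannot exclude a pairing of the arrays in another order. Alternatives were other filters, scalings, variance models, blocks, thresholds and leaving out each siRNA array.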

Additional observations from a re-analysis of the deposited data

How the results depend on the processing

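The methods' threshold of a log-odds B over 3 gave 1021 probe sets (440 higher, 581 lower), beside 4405 at an adjusted p under 0.05, and 940 for the difference from Pint ASO, beside 4811. With a replicate block in the siRNA arrays alone the count was 1864 (807 higher, 1057 lower), with a replicate block by title number over all arrays 3419 and by description number 3860; since the arrays share only a number, these do not show a pairing. Leaving out 1 siRNA array gave 3193 to 3535 called probe sets, 1498 to 1739 higher and 1652 to 1903 lower, and 3942 to 4300 for the difference from Pint ASO. Of 3432 called genes 2247 kept the call without each of the 6 arrays in turn. Higher calls outnumbered lower ones when arrays were centred again (2192 and 1833), when quantile normalization was applied again (2479 and 2241) or without the low-numbered unnamed probe sets (2212 and 2156). No called listed gene changed direction, while values near 0 that were not called carry no direction. The call was lost in at least 1 alternative by 472 called listed genes, most often under the block in the siRNA arrays alone (466). Dim genes were called least, and changes near the floor are uncertain in size. The alternatives for the targeted gene were not run.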
